A study of Mus musculus with 4 samples.

Results

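Carbonic anhydrases are zinc enzymes that interconvert carbon dioxide and water with bicarbonate and a proton. The 10 genes described here are the members of this family given in a fixed list, Car1, Car2, Car3, Car4, Car7, Car8, Car9, Car12, Car13 and Car14. They were 10 of 15123 genes read by named probes, and each had at least 1 named probe. The list was chosen by gene family with the ratio of spheroids to organoids of these samples known, so that ratio is given for the members as a description, without a test. The study grew small intestinal epithelium of single wild-type CD1 mice in Matrigel with EGF, Noggin and R-spondin1, and compared spheroids, which are round hollow cysts, with budding organoids from the same animal on 2-colour arrays. Both cultures of an animal had the same genotype, medium and age. Per the labels, each kind of culture was kept by picking its own structures over 3 passages. There were 4 such pairs, 2 from fetuses of embryonic day 16 (E16), 1 from a fetus of embryonic day 18 (E18) and 1 from a newborn of postnatal day 0 (P0).

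In gut epithelium, carbonic anhydrases supply bicarbonate and protons to the transporters that secrete bicarbonate and absorb salt. Car1, Car2, Car3, Car7 and Car13 encode enzymes of the cytosol. Car4 is tethered to the outer face of the cell membrane by a lipid anchor, and Car9, Car12 and Car14 span the membrane with the active domain outside. Car8 encodes a related protein that has lost the zinc-binding site needed for catalysis. Car1 and Car4 are known from colon epithelium, Car2 from many secreting epithelia, and Car9 from cells in low oxygen.

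Each value is taken as a log2 ratio of the spheroid to the organoid culture of 1 animal. No label states the log base, and each fold below rests on it. Positive values are taken to mean more signal from spheroids, which is likely but stated by no label: spheroids come first in the sample titles and are described as channel 1 of each array. In that direction Lgr5, the crypt stem cell receptor from which the series title calls the spheroid progenitors independent, had a mean log2 ratio of -1.92 ± 0.58 (SD, n = 4). If the deposited sign ran the other way, each direction below would turn. Ratios carry no level, so whether a gene was expressed in either culture, and how strongly, is unknown, and markers of intestinal epithelium could be checked only as ratios. A ratio cannot tell fewer cells of a type from less RNA per cell. The 94 negative control probes of the array lay between -0.14 and 0.15 in the first E16 pair, -0.16 and 0.20 in the second, -0.36 and 0.10 in the E18 pair and -0.33 and 0.17 in the P0 pair, and serve as the background range. Across all genes the pairs correlated at Pearson's r of 0.316 to 0.916, lowest between the E18 pair and the second E16 pair and highest between both E16 pairs.

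The family held members at both ends of the scale. Car2 had a mean log2 ratio of 3.63 ± 0.92 (SD, n = 4), a 12.4-fold higher signal in spheroids. Car9 had a mean of -1.86 ± 1.01, which is 3.63-fold higher in organoids. Car13 lay at 0.70 ± 0.31, Car8 at -0.66 ± 0.49 and Car12 at -0.43 ± 0.39. The means of Car1, 0.42 ± 1.29, and Car4, -0.25 ± 0.47, rested on the E18 pair. Car3, Car7 and Car14 stayed inside the background range in all 4 pairs, as did 40.5% of all genes.

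**Figure D1:**
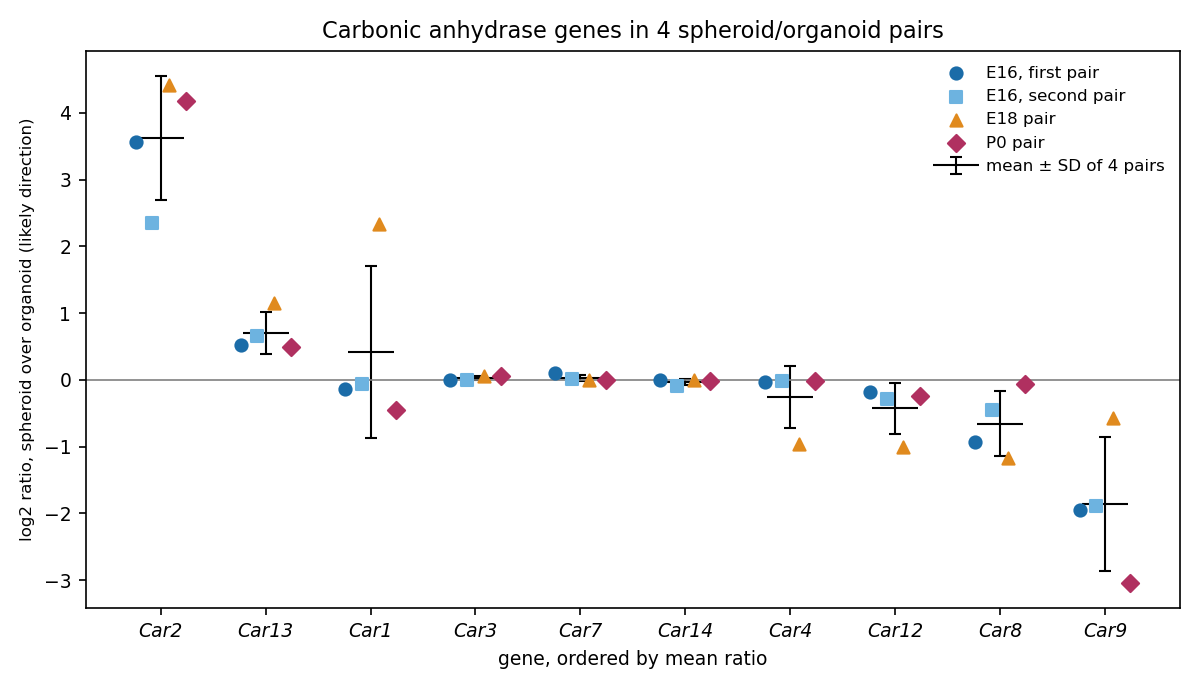
Log2 ratio of spheroids over organoids (vertical axis) for the 10 carbonic anhydrase genes, ordered by mean (horizontal axis). Each point is 1 animal's pair, and bars give the mean ± SD of the 4 pairs. Car2 lies above 2 and Car9 below -0.5 in every pair, and the E18 pair lies apart from the other 3 for Car1, Car4 and Car12.

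By mean, 2 of the 10 members had a log2 ratio of at least 1 in size, Car2 and Car9, against 3.78% of all genes. Since the members were chosen with these ratios known, nothing is read from this count or from those that follow. The median of the 10 means was -0.0039, beside -0.0033 for all genes. The sign was the same in all 4 pairs for 7 members, against 30.7% of all genes. Car2 and Car13 were positive in each pair, and Car4, Car8, Car9, Car12 and Car14 were negative. Car2, Car9 and Car13 lay outside the background range in all 4 pairs, as did 14.7% of all genes.

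Among neighbours in the order of means, Car2 stood clear of Car13 without overlap, by 2.92 ± 0.86 (SD of the difference within pairs, n = 4). Car7 and Car14 did not overlap either, but both lay inside the background range. All other neighbours in the order overlapped. Car8 was above Car9 in 3 of 4 pairs, with a difference of 1.205 ± 1.47.

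Of the cytosolic enzymes, Car2 is widespread and among the fastest forms. Its log2 ratio was 3.56 and 2.35 in the E16 pairs, 4.42 in the E18 pair and 4.18 in the P0 pair. The lowest pair still showed a 5.09-fold and the highest a 21.4-fold higher signal in spheroids. Counted from the top among all 15123 genes, Car2 ranked 5 and 43 in the E16 pairs, 2 in the E18 pair and 20 in the P0 pair, and 4 by its mean. Both probes of Car2 were positive in each pair. Probe mMA032971 read 3.53, 2.40, 3.67 and 4.03 in the first E16, second E16, E18 and P0 pairs, and probe mMC007236 read 3.597, 2.30, 5.17 and 4.33. The probes were at most 1.503 apart, in the E18 pair, and 0.068 apart in the first E16 pair.

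Car13, another cytosolic enzyme, was positive in every pair but at a lower ratio. It read 0.52 and 0.65 in the E16 pairs, 1.16 in the E18 pair and 0.48 in the P0 pair, from 1 probe. The E18 pair was the highest, and the other 3 lay close together.

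Car1, the form of red blood cells and colon epithelium, was high in a single animal. Its log2 ratio was 2.34 in the E18 pair, a 5.07-fold higher signal in spheroids. It was -0.14 and -0.066 for the E16 animals and -0.45 for the newborn. Without the E18 pair the mean of Car1 was -0.22 ± 0.21 (SD, n = 3), of opposite sign to the mean of all 4. From the top, Car1 ranked 50 of 15123 in the E18 pair, while its other ranks lay between 10575 and 13757. It was read by 1 probe, so no second reading of the E18 value exists here.

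Car3, a slow enzyme known from muscle and fat, and Car7, known from brain, had no ratio outside the background range. Car3 read between -0.006 and 0.057 and Car7 between -0.005 and 0.0995. The probes of Car3 had means of -0.005 and 0.061.

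**Figure D2:**
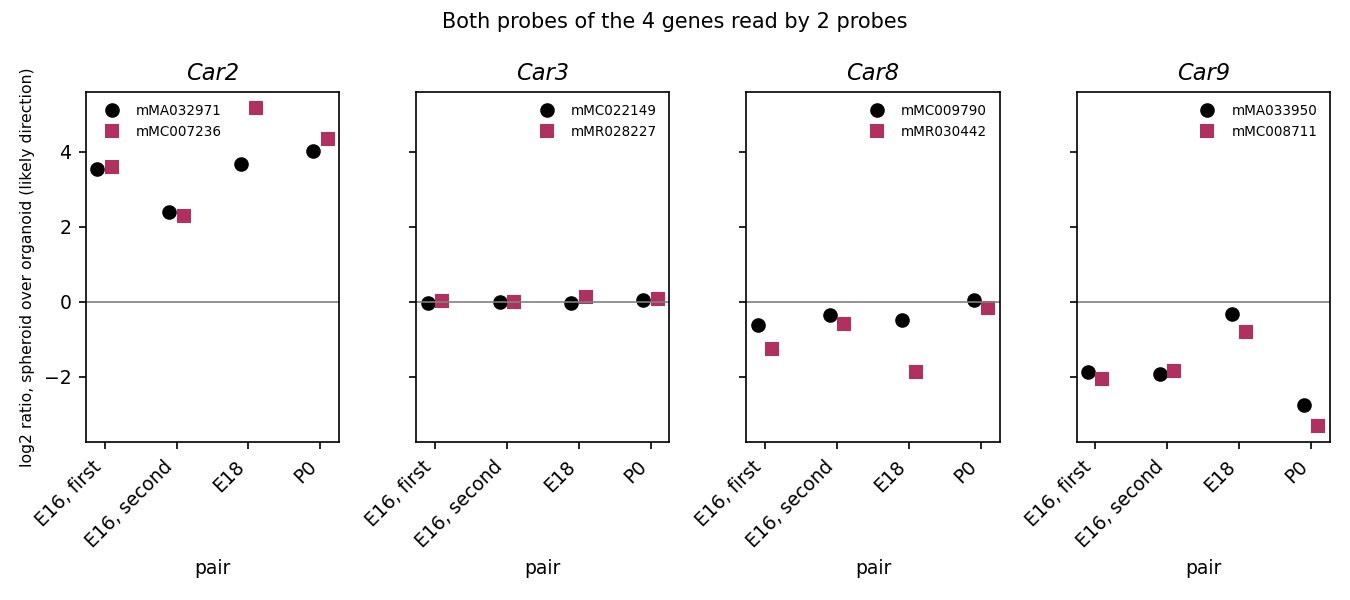
Log2 ratio of spheroids over organoids (vertical axis) in each pair (horizontal axis) for the 4 genes read by 2 probes, with 1 marker shape per probe. The probes of Car2 and of Car9 agree in sign in all 4 pairs, while those of Car8 differ by up to 1.37, in the E18 pair.

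Car13, Car1, Car3 and Car2 stand next to each other on mouse chromosome 3, with no other protein-coding gene between them in the RefSeq gene table of GRCm38.p6. Within this cluster the mean ratios were 0.70, 0.42, 0.028 and 3.63 in that order. Car3 lay between Car1 and Car2 and stayed inside the background range in the same pairs in which Car2 was above 2. Of the coding genes flanking the cluster, E2f5, a cell cycle transcription factor, had a mean of 0.13 ± 0.17 on the Car13 side, and Sirpb1a, a receptor of myeloid cells, had -0.0074 ± 0.028 on the Car2 side. Rbis and Gm9733, which lie closer, had no named probe here. These flanking genes were picked for their position.

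Of the enzymes with an outward-facing active domain, Car9 had the lowest mean ratio of the family, while in the E18 pair Car8, Car12 and Car4 were lower. It read -1.95 and -1.89 in the E16 pairs, -0.57 in the E18 pair and -3.04 in the P0 pair. The signal was thus 8.21-fold higher in organoids of the P0 animal and 1.48-fold higher in those of the E18 animal. From the bottom among all genes, Car9 ranked 119 and 137 in the E16 pairs, 898 in the E18 pair, 28 in the P0 pair and 60 by its mean. Both probes were negative in each pair and at most 0.56 apart. Without the E18 pair the mean was -2.29 ± 0.65 (SD, n = 3).

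Car12, also known from low oxygen and from secreting epithelia, was negative in every pair with 1 pair apart. Its ratio was -0.18 and -0.29 in the E16 pairs, -1.002 in the E18 pair and -0.24 in the P0 pair. Without the E18 pair the mean was -0.24 ± 0.058 (SD, n = 3). Car4 read -0.026 and -0.0145 in the E16 pairs, -0.96 in the E18 pair and -0.0205 in the P0 pair. Only the E18 value of Car4 left the background range. Car14 read between -0.0995 and -0.0055 and stayed inside it.

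**Figure D3:**
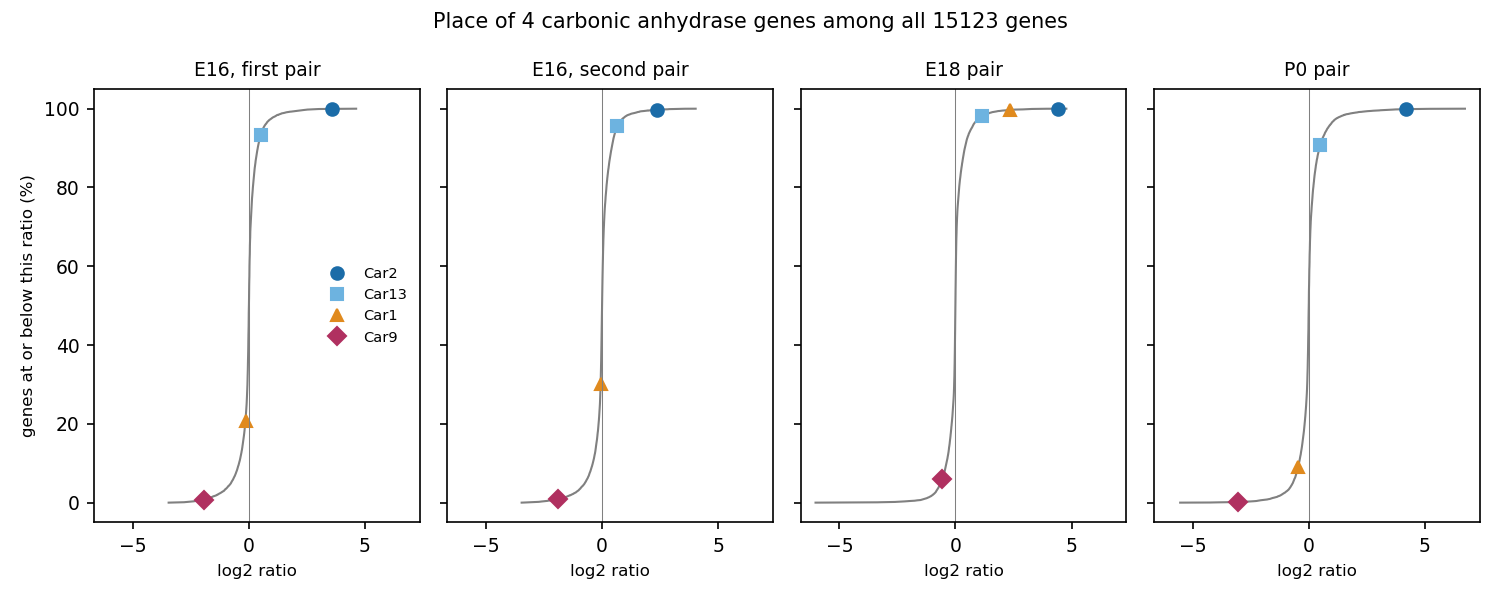
Share of all 15123 genes at or below a given log2 ratio (vertical axis, percent) against the log2 ratio of spheroids over organoids (horizontal axis), 1 panel per pair. Markers show Car2, Car13, Car1 and Car9. Car2 stands at the upper end and Car9 in the lower tail in each panel, whereas Car1 reaches the upper tail in the E18 panel alone.

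Car8, the form without catalytic activity, is known as a partner of the inositol trisphosphate receptor in neurons. Its ratio was -0.93 and -0.46 in the E16 pairs, -1.17 in the E18 pair and -0.066 in the P0 pair. It was thus outside the background range in the 3 fetal pairs and inside it in the newborn. Its probes differed in size. Probe mMR030442 had a mean of -0.96 ± 0.74 and probe mMC009790 one of -0.35 ± 0.28 (SD, n = 4), and mMC009790 read 0.039 in the P0 pair. The probes were 1.37 apart in the E18 pair.

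In the E18 pair 5 of 10 members had a ratio above 1 in size, Car2, Car1, Car13, Car8 and Car12, against 4.5% of all genes. In each of the other pairs 2 did, Car2 and Car9, and among all genes the share was 5.84% and 5.2% for the E16 animals and 6.16% for the newborn. The E18 pair lay apart from the other 3 for Car1, Car4 and Car12, by Dixon's ratio of the gap to the range, as it did for 2% of all genes. Any single pair lay apart in 5.65% of all genes. Since the members were chosen with these ratios known, nothing is read from these counts either. Absorptive enterocyte genes had a median of 0.41 in the E18 pair, against -2.27 and -2.68 for the E16 animals and -0.93 for the newborn, over 14 measured genes. Of these 14 genes 5 were negative in the E18 pair, against 14 in each E16 pair and 13 in the P0 pair. Their part in the carbonic anhydrase ratios was not tested.

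The ratio at E16 was then set against the ratio at E18 and P0. This difference comes from the same 4 ratios per gene that were known when the members were chosen. Its p-values for the members are therefore given as a description. The mean log2 ratio of Car2 was 2.96 at E16 and 4.30 later, a difference of -1.34 ± 0.49 (SE), with an adjusted p of 0.295 in limma. The ranges did not overlap, and the gap between the groups was smaller than that between the E16 pairs. Car1 stood at -0.10 at E16 and 0.94 later, with a difference of -1.05 ± 1.09 and an adjusted p of 0.742, and only the E18 animal was high. Car9 stood at -1.92 at E16 and -1.80 later, and the E16 values lay between those of the E18 and P0 animals. For the other members the difference lay between -0.24 and 0.47. With limma 0 of 10 members passed, and 0 also had an unadjusted p under 0.05. Of all genes 0% passed, and 19.1% had an unadjusted p under 0.05. An exact permutation of 2 against 2 pairs cannot give a two-sided p below 0.333. Without the P0 pair, where the later group is the E18 animal alone and is assumed to vary like the E16 pairs, Car1, Car4, Car9 and Car12 passed, as did 10.2% of all genes. Without the E18 pair Car9 passed with the opposite sign, at 1.12 against -1.35 without the P0 pair, as 2.93% of all genes passed.

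Other carbonic anhydrases with a named probe were Car5a of mitochondria, Car6 of saliva, Car15, and Car11, a member without catalytic activity. Their mean ratios were -0.031 ± 0.043, -0.099 ± 0.17, -0.10 ± 0.18 and -0.065 ± 0.11 in that order, and 0 of 4 passed in limma (adjusted p from 0.566 to 0.644, 0 at an unadjusted p under 0.05). The median of these 4 means was -0.082. Of all genes 3.02% passed higher and 1.34% lower, and 20.9% had an unadjusted p under 0.05. Car5b and Car10 had no named probe here.

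Genes induced in low oxygen are the group that Car9 is known from. At an unadjusted p under 0.05 in limma, 1 of 20 measured was higher and 6 were lower, where 20.9% of all genes reached it. After adjustment 0 passed higher and 2 lower, where 3.02% and 1.34% of all genes passed. These were Vegfa, the vascular growth factor, at -1.58 ± 0.33 (SD, n = 4) with an adjusted p of 0.0236, and Pfkfb3, a regulator of glycolysis, at -1.10 ± 0.32 with an adjusted p of 0.0384. Vegfa was negative in each pair, reading -1.32 and -1.87 for E16, -1.26 in the E18 pair and -1.86 in the P0 pair. Of the 20 genes, 0 passed lower when the P0 pair or either E16 pair was left out, and 2 without the E18 pair. Across all genes, 145 passed in either direction without the P0 pair, 2 without the first E16 pair and 0 without the second. The number was 740 without the E18 pair. Since so few genes of any kind passed without the P0 pair or an E16 pair, the counts of 0 say little about this list. The median of the 20 means was -0.59, beside -0.0033 for all genes. The medians by pair were -0.77 and -1.40 in the E16 pairs, 0.20 in the E18 pair and -0.37 in the P0 pair. In both E16 pairs 18 of the 20 genes were negative, against 37.0% of all genes. The gene lists, this one among them, were chosen with earlier results of these data known. Their counts and p-values are therefore given as a description. Hmox1, a stress-induced haem oxygenase, had a ratio of 1.55 ± 1.07 and did not pass. Car9 was lowest in the P0 pair and the list in the second E16 pair, and both were highest in the E18 pair.

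**Figure D4:**
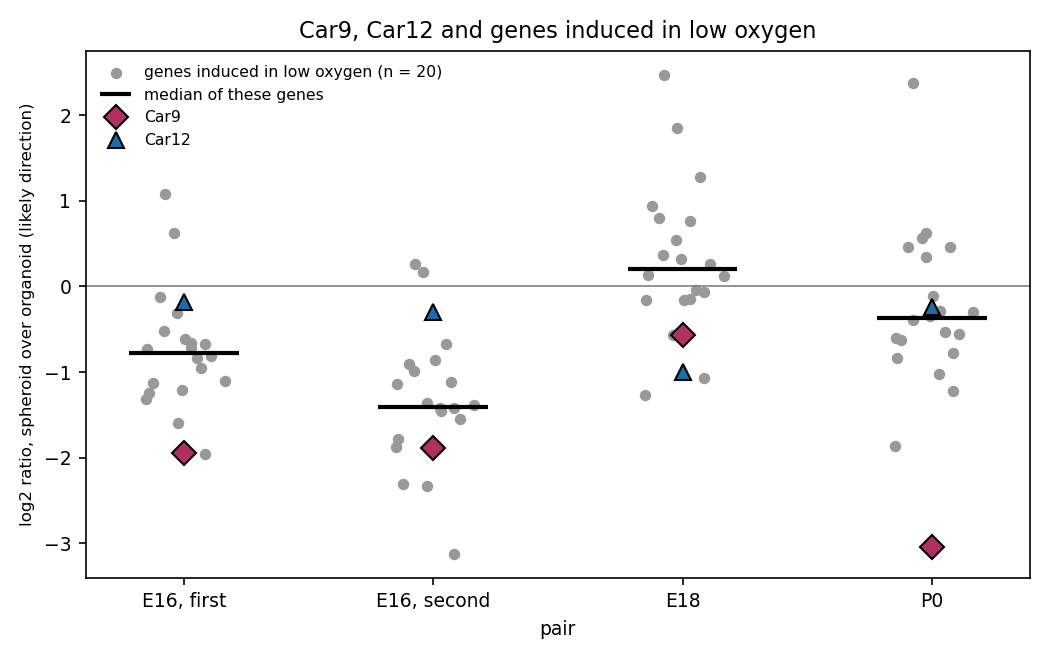
Log2 ratio of spheroids over organoids (vertical axis) in each pair (horizontal axis) for Car9, Car12 and 20 genes induced in low oxygen, with a bar at the median of the 20. The median is -0.77 and -1.40 for the E16 animals, 0.20 for the E18 animal and -0.37 for the newborn, and Car9 lies below it in all 4.

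The promoters of Car9 and Car12 are shown because both genes are known from low oxygen and were negative in all 4 pairs. They run from 250 bases before to 50 bases after the gene's start, from RefSeq on GRCm38.p6, chr4:43506776-43507075 for Car9 and chr9:66713436-66713735 for Car12, both on the plus strand. Capitals mark ACGTG, the core bound by hypoxia-inducible factors, read on either strand, where it appears as CACGT.
Car9: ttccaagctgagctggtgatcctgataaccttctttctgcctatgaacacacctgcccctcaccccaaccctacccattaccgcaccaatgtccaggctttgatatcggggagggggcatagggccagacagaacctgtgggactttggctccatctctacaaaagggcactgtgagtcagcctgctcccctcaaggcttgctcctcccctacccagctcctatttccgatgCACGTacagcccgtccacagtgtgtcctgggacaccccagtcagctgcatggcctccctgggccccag
Car12: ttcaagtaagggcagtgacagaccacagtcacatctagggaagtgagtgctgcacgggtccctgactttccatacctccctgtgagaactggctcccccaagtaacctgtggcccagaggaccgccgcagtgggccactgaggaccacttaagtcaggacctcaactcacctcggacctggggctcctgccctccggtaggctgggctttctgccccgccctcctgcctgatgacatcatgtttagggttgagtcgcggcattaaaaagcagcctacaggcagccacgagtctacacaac
Car9 held 1 such match, from -18 to -14 before the start, and Car12 held 0 in this window. Of all 32851 promoters of this length in the table, 19.6% held ACGTG on either strand. Car9 also held TGAGTCA, a match to TGANTCA of the AP-1 factors, from -77 to -71, which 7.81% of promoters hold on either strand. The TEAD motif GGAATG, present on either strand in 14.7% of promoters, was in neither window. Matches of the 3 motifs did not overlap in Car9. Of the other members, Car4, Car7 and Car14 had entries in the table. The ACGTG core was also in Car14, from -7 to -3, and in Car4, from 2 to 6 counted past the start, so 3 of the 5 members with an entry held it. Car14 stayed inside the background range in all 4 pairs, and Car4 in all but the E18 pair. Car14 held a TEAD match as well, from -232 to -227, and Car7 held no match to any of these motifs.

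Of 12 measured bicarbonate and chloride transporters, 0 passed in limma, where 3.02% of all genes passed higher and 1.34% lower. At an unadjusted p under 0.05 there was 1, against 20.9% of all genes. The median of their means was 0.0024. The exchanger Slc26a6 had a ratio of -1.14 ± 1.14, with -1.52 and -1.89 in the E16 pairs, 0.56 in the E18 pair and -1.71 in the P0 pair. Slc26a3, the chloride and bicarbonate exchanger of the colon surface, read -2.16 and -1.73 in the E16 pairs, 1.05 in the E18 pair and -0.17 in the P0 pair. In both exchangers the E18 pair was the only positive one. The chloride and bicarbonate channel Cftr had a ratio of 0.20 ± 0.56. Without the E18 pair 1 gene of the list passed lower, where 740 of all 15123 genes passed in either direction.

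Proton and lactate carriers gave 0 calls in limma among 12 measured, 3 with an unadjusted p under 0.05, and a median of 0.00088. Of all genes 3.02% passed higher and 1.34% lower, and 20.9% had an unadjusted p under 0.05. The lactate exporter Slc16a3 had a ratio of -1.10 ± 0.91 and the sodium and proton exchanger Slc9a4 one of 0.89 ± 0.57. Ezrin (Ezr), which links exchangers to the cytoskeleton, had 0.53 ± 0.18 with an adjusted p of 0.0541 in limma. Water and gas channels gave 0 calls among 11, also with 3 at an unadjusted p under 0.05, and a median of -0.065. The water channel Aqp5 read 2.10 and 2.05 in the E16 pairs, 0.64 in the E18 pair and 2.31 in the P0 pair. Aqp1 was negative in each pair, with a ratio of -1.51 ± 0.81. Without the E18 pair 1 channel passed higher and 1 lower, where 740 of all 15123 genes passed. With array weights 1 channel and 1 proton or lactate carrier passed higher, where 1417 of all genes passed in either direction. The carriers and channels given here with their values were named after these were seen.

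Markers of cells known to hold carbonic anhydrases were set beside the members. Of all genes, 3.02% passed higher and 1.34% lower in limma, and 20.9% had an unadjusted p under 0.05. Inside the background range in all 4 pairs lay 40.5% of all genes. Of 15 red blood cell genes 0 passed by limma, with 2 at an unadjusted p under 0.05, their median was -0.010, and 10 lay inside the background range in all 4 pairs, among them Alas2, an enzyme of haem synthesis, at a mean of -0.0015. The alpha-globin gene Hba-a1, at 0.61 ± 0.28, had the highest mean of the 15. Of the red blood cell genes 1 passed higher without the E18 pair and 2 with array weights, where 740 and 1417 of all 15123 genes passed. Of 9 macrophage and osteoclast genes 0 passed, with a median of 0.0083 and 7 inside the background range, and of 11 muscle and fat genes 0 passed, with a median of 0.0091 and 8 inside it. Mesenchyme genes gave 0 calls among 12, with a median of -0.024 and 10 inside it. The last 3 lists also had 0 genes at an unadjusted p under 0.05. Among 11 genes of acid-secreting and surface cells of the stomach 0 passed (3 at an unadjusted p under 0.05), with a median of -0.0025. The proton pump genes Atp4a and Atp4b of the acid-secreting cells, which also hold Car2, had ratios of -0.11 ± 0.18 and -0.0025 ± 0.057. The stomach surface gene Gkn1 read 2.49 and 2.12 in the E16 pairs, 2.46 in the E18 pair and 4.42 in the P0 pair, and did not pass (adjusted p = 0.0552 in limma). Of the stomach genes 1 passed higher and 1 lower with scaled columns and with array weights, and 1 higher without the P0 pair. Of all genes 704, 1417 and 145 passed in these settings, in that order. Gkn1 was not alone in this list, although the median was near 0. Gkn2, Tff1 and Tff2 had means of 2.71 ± 2.07, 2.19 ± 1.98 and 1.85 ± 2.06, and Tff2 was negative in the E18 pair. The means of the remaining stomach genes lay between -0.48 and 0.33. Gkn1 and Car2 were each above 2 in all 4 pairs. Gkn2, Tff1 and Tff2 were lowest in the E18 pair, at 0.94, 0.22 and -0.32, where Car2 was highest at 4.42. The part of these genes in the Car2 ratio was not tested.

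Of 10 colon surface genes 1 passed lower in limma, Guca2a, the guanylin precursor, at -2.47 ± 0.81 with an adjusted p of 0.0463, and the median was -0.060. By pair, the colon list had medians of -0.37 and -0.13 for E16, 0.027 for E18, where Car1 was high, and 0.024 for P0. Of its 10 genes 9 and 7 were negative in the E16 pairs, 3 in the E18 pair and 4 in the P0 pair. The part of these genes in the Car1 ratio was not tested. Of 14 enterocyte genes 2 passed lower, the peptidase Dpp4 at -2.87 ± 0.78 (adjusted p = 0.0345) and the glucose transporter Slc5a1 at -2.40 ± 0.58 (adjusted p = 0.0288), and the median was -1.45. The same fit gave 3.02% of all genes higher and 1.34% lower. Leaving out the P0 pair, 0 colon surface genes and 1 enterocyte gene passed lower, and 0 of either list did without either E16 pair. Few genes of any kind passed there. Of all 15123 genes, 145 passed without the P0 pair, 2 without the first E16 pair and 0 without the second. The colon surface count was also 0 with the first probe by ID in place of the probe mean and with the robust prior. Of all genes 513 and 496 passed in these settings. Without the E18 pair 3 enterocyte genes and 1 colon surface gene passed lower, where 740 of all genes passed in either direction. With array weights 4 enterocyte genes and 1 colon surface gene did, where 1417 of all genes passed.

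The genes with ratios most like those of Car2 across the 4 pairs, by the root mean square difference in log2 ratio, were the tubulin Tubb6 at 0.56, the surface protein Msln at 0.68, the cornified envelope protein Sprr1a at 0.76, the alarmin Il33 at 0.80 and the basement membrane collagen Col4a2 at 0.82. Tubb6 read 3.15 and 2.88 in the E16 pairs, 3.76 in the E18 pair and 3.56 in the P0 pair. Genes closest to Car9 were nearer to it, Cox7a1 of the respiratory chain at 0.13, the claudin Cldn15 at 0.14, the hydroxysteroid dehydrogenase Akr1c14 at 0.24, the serotonin transporter Slc6a4 at 0.24 and the urea cycle enzyme Otc at 0.35. Cldn15, a tight junction protein of the small intestine, read -1.89 and -1.94 in the E16 pairs, -0.65 in the E18 pair and -3.30 in the P0 pair. All 10 had the sign of their member in every pair, which closeness to it all but requires.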

How the data were processed

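The authors deposited 1 ratio per probe and animal for 38083 probes of MEEBO arrays (70-base oligonucleotides), from amplified spheroid and organoid RNA hybridised with the dyes swapped, per the labels' protocols and the design text. The methods of background correction, normalization and joining of both dye orientations are not given in sources used here. The ratios the authors deposited are treated as log2, which is an assumption. A value of 7.51 would exceed what a scanner can give as log10, but this does not exclude a natural logarithm. Column medians lay between -0.0055 and -0.001, so the columns were already centred. Their scale is inferred and their direction likely. Without intensities, precision is limited by the number of arrays.

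Gene names came from GEO's annotation of the platform, possibly out of date, in which 22941 probes had 1 gene, 0 several and 15142 none. The 22305 named probes with the mM prefix were averaged to 15123 genes, and 636 named control probes were left out. Symbols are those of RefSeq, GRCm38.p6. The 10 members had 14 probes, 2 each for 4 genes and 1 each for 6.

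With R 4.3.3, limma 3.58.1 (two-sided moderated tests after lmFit and eBayes, adjusted by Benjamini-Hochberg across all genes, threshold 0.05) set the mean of the 4 pairs against 0 and the E16 pairs against E18 and P0, and was tested on simulated data. Alternatives were other ways of joining probes, scaling, centring, array weights, a robust prior and leaving out each pair. The members and gene lists were chosen with earlier results of these data known. Named were all members, other measured family genes, up to 4 genes per list past the threshold by moderated t, and the 5 genes nearest to the highest and the lowest member. Further list genes serve as examples picked with their values in view. Of the members, 5 matched the RefSeq promoter table.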

Additional observations from a re-analysis of the deposited data

Results flagged for a closer look

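Of the genes named with their values, 46 were tried for 1 pair far from the other 3, by Dixon's ratio of gap to range for 4 samples. This held for 7 of them, where chance flags about 1 in 20, and 5.65% of all genes did so. Many of these genes were picked with their values known, so nothing is read from this count. Car1 stood at 2.34 in the E18 pair, against -0.45 to -0.066 in the others. Car4 stood at -0.96 in the E18 pair, against -0.026 to -0.0145. Car12 stood at -1.002 in the E18 pair, against -0.29 to -0.18. Each of these 3 was read by 1 probe. Car7 stood at 0.0995 in the first E16 pair, against -0.005 to 0.007, and its 4 values did not leave the background range. Of the genes that are no members, Aqp5 stood at 0.635 in the E18 pair, against 2.05 to 2.31, and Slc26a6 at 0.56, against -1.89 to -1.52. Gkn1 stood at 4.42 in the P0 pair, against 2.12 to 2.49.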

How the results depend on the processing

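Each ratio already sets 2 cultures of 1 animal against each other, so the test of the mean against 0 is itself a paired analysis. With other ways of joining probes, scaled columns and another centring, the mean ratio of each member moved by less than its SD. Leaving out 1 of 4 pairs cannot move a mean by as much as its SD, so that rule is no check there. Without the E18 pair the mean of Car1 changed sign. Leaving out a pair, the means lay between 3.36 and 4.05 for Car2, -2.29 and -1.47 for Car9 and -0.22 and 0.71 for Car1. The count of members with a mean of at least 1 in size stayed at 2 under these alternatives. Array weights and the robust prior were not run for these values. Calls of the members in this ratio are not given, since they were chosen with it known. Leaving out a pair, 0 to 740 of all genes passed in limma (0, with 2346 at an unadjusted p under 0.05, without the second E16 pair), and with array weights 1417. For E16 against E18 and P0, 0 to 1544 genes passed, with 443 lacking the E18 pair and 1544 lacking the P0 pair. Without the P0 pair the difference was -2.45 for Car1, 0.94 for Car4, -1.35 for Car9 and 0.77 for Car12. Without the E18 pair that of Car9 reversed to 1.12. Each of these rests on 1 later animal and on ratios known when the members were chosen, so no call is read from them. Among these alternatives, this comparison thus gave calls where the later group held a single animal. Brightness over background is unknown, so a ratio near 0 cannot tell equal expression from no signal.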
